A study of Mus musculus with 6 samples.

Results

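In all, 10 genes of the endoplasmic reticulum (ER) stress response and the integrated stress response were followed in the kidneys of cisplatin-treated WT and Trpm2-/- mice. They were taken by name from the deposited tables: Atf4, Ddit3, Trib3, Asns, Chac1 and Ppp1r15a of the ATF4 and CHOP branch, and Hspa5, Xbp1, Herpud1 and Dnajb9 of the ATF6 and XBP1 branches. The 10 names matched 11 of the 54532 rows, because Ddit3 is listed under 2 identifiers. The second, ENSMUSG00000116429, is a coding entry of 105 bases inside the Ddit3 locus and had 0 counts in every library. The other 10 rows all passed the filter on low counts and were tested among 15816 genes.

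Kidneys came from 3 WT and 3 Trpm2-/- mice of the C57BL/6J strain, and each mouse received cisplatin at 18 mg/kg and was sampled after 72 h. The labels give an age of 6 to 8 weeks, and the methods give a somewhat older range and males. The Trpm2-/- allele lacks exons that encode part of the transmembrane region, so that this calcium-permeable channel is not functional. By the methods, WT mice were bought and the Trpm2-/- line came from another institution, so colony and genotype cannot be told apart. All mice were treated, so the comparison is between genotypes under cisplatin and holds no untreated level. The libraries are numbered 1, 2 and 3 for WT and 1, 2 and 4 for Trpm2-/-. Nothing in the labels states more on how the mice were housed or paired, and p-values measure the spread between these samples.

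When unfolded proteins accumulate in the ER, the sensors PERK, IRE1 and ATF6 are released from the chaperone BiP, which Hspa5 encodes. PERK and related kinases phosphorylate the translation factor eIF2α, which lowers protein synthesis in general while translation of ATF4 goes up, and ATF4 then induces CHOP (Ddit3) and genes of amino acid supply. IRE1 splices the Xbp1 transcript, and XBP1 and ATF6 induce chaperones and genes that clear misfolded proteins. Tubular cells of the kidney engage both arms in toxic injury. Phosphorylation, translation and Xbp1 splicing are not visible in gene counts.

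The promoter windows of the genes are shown first, with a search for sequence elements to which these factors can bind. A match is one of letters only, and binding was not tested. RefSeq windows (GRCm38.p6) from 250 bases before to 50 bases after the transcript start were found for all 10 genes. Each was searched on both strands for 4 elements, and matches are in capitals. The C/EBP-ATF response element, to which ATF4 binds, was searched as TGATGNAA and lies in 3.97% of the 32851 windows of all genes. The ER stress response element was searched as CCAAT and CCACG with 9 bases between them, and lies in 0.119% of windows. Its second form was searched as ATTGG and CCACG with 1 base between them, and lies in 0.0365%. The core of the unfolded protein response element was searched as TGACGTG, which can overlap the CCACG of the other elements, and lies in 2.01%. Herpud1 was the only one of the 10 genes whose window held both an ER stress element, in its second form from base -52 to -42, and a C/EBP-ATF element, from -112 to -105 (the start base is 0). Hspa5 held the ER stress response element from -65 to -47 and the core of the unfolded protein response element from -157 to -151. Asns, Chac1 and Trib3 held a C/EBP-ATF element, and the windows of Atf4, Ddit3, Ppp1r15a, Xbp1 and Dnajb9 held none of the 4.
Herpud1 (chr8:94386179-94386478, plus strand): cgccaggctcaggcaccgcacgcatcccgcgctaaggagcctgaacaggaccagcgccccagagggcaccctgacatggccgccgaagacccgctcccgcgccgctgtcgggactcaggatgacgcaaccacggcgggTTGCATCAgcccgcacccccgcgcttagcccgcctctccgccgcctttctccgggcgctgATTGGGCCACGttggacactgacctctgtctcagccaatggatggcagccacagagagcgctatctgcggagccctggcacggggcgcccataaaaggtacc
Hspa5 (chr2:34771840-34772139, plus strand): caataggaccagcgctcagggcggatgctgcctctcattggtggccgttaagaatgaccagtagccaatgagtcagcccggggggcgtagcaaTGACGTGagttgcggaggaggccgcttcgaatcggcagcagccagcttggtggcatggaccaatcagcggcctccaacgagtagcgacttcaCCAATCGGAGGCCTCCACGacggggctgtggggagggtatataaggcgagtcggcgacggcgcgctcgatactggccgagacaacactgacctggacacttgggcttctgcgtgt
Asns (chr6:7693160-7693459, minus strand): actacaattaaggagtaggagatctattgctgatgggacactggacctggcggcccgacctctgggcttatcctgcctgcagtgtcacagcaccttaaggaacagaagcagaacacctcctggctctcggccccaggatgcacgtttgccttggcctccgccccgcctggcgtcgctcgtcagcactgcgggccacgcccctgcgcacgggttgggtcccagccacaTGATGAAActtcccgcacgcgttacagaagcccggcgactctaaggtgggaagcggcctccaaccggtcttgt
Chac1 (chr2:119350992-119351291, plus strand): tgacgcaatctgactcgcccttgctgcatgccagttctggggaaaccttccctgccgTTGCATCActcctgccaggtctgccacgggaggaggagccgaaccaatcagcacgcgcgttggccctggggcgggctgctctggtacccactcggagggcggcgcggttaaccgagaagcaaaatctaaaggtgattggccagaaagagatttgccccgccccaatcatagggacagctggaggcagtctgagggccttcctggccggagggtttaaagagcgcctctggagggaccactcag
Trib3 (chr2:152344011-152344310, minus strand): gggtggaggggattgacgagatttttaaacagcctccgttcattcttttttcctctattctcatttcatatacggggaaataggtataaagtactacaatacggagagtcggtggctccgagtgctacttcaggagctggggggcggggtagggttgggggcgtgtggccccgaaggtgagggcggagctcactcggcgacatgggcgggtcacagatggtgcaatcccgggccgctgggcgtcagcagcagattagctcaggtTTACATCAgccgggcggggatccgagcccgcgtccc

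Counts on genes summed to 14053307 to 17150089 per library, and 3 counts correspond to 0.175 to 0.213 CPM (counts scaled to library size), a floor that covers counting error only. Trpm2 itself had 5, 5 and 27 counts in WT and 10, 16 and 20 in Trpm2-/- libraries (log2 fold change 0.36, adjusted p = 0.776 in edgeR's test), and gene-level counts include the exons that remain in the allele, so they do not check the labels. Markers of the proximal tubule, the defining cell type of the cortex, were present in every library, and 11 of 12 were lower in Trpm2-/- kidneys after adjustment. Their summed level was 9398 to 10380 CPM in WT and 2347 to 3497 CPM in Trpm2-/- libraries. Of 6 markers of the thick ascending limb, 2 were lower and all 6 were below 0 on the log2 scale. Of 8 tested markers of the collecting duct, 2 were lower and 0 higher (3 above and 5 below 0), and of 3 of the distal convoluted tubule, 0 were called. Over all genes, 7.28% were lower. Of 8 markers of injured tubules, 2 (Krt20 and Sox9) were higher, beside 4.74% of all genes. The 8 summed to 17010 to 18880 CPM in WT and 18860 to 26980 CPM in Trpm2-/- libraries. Most of that sum was Spp1, which was not called (log2 fold change 0.23, adjusted p = 0.561 in edgeR's test). Genes of the mitochondrial genome took 4.43% to 4.72% of counts in WT and 7.91% to 11.04% in Trpm2-/- libraries. WT replicate 1 stood apart in 7 urothelial markers (69.7 CPM summed, against 8.26 to 20.1 in the other 5 libraries), and Trpm2-/- replicate 4 in 5 podocyte markers (509.8 CPM, against 130 to 173). In whole kidney, fewer cells of a type and less RNA per cell cannot be told apart.

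Of the 10 genes, 1 was lower and 0 were higher in Trpm2-/- kidneys by the quasi-likelihood test of edgeR, with genes called at an adjusted p under 0.05 after Benjamini-Hochberg adjustment. Over all genes tested, 7.28% were lower and 4.74% higher by this rule. Herpud1 was the gene that fell. At an unadjusted p under 0.05 the count was 1 in each direction, Herpud1 and Ppp1r15a, and DESeq2 called 1 higher (Ppp1r15a) and 1 lower (Herpud1). Over all genes, 14.3% were lower and 14% higher at an unadjusted p under 0.05, and DESeq2 called 9.13% lower and 6.92% higher. By the rule of the methods, an absolute log2 fold change above 1 with p under 0.05, 0 of the 10 genes were called in either direction, where 4.1% of all genes were lower and 3.5% higher. All 3 Trpm2-/- libraries lay below all 3 WT libraries for 2 genes (Herpud1 and Hspa5) and above them for 1 (Ppp1r15a), against 16.8% and 16.7% of all genes. The median log2 fold change of the 10 genes was 0.03, beside 0.02 over all genes, with 5 genes above and 5 below 0. The share of the 10 genes called was near that of all genes.

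**Figure D1:**
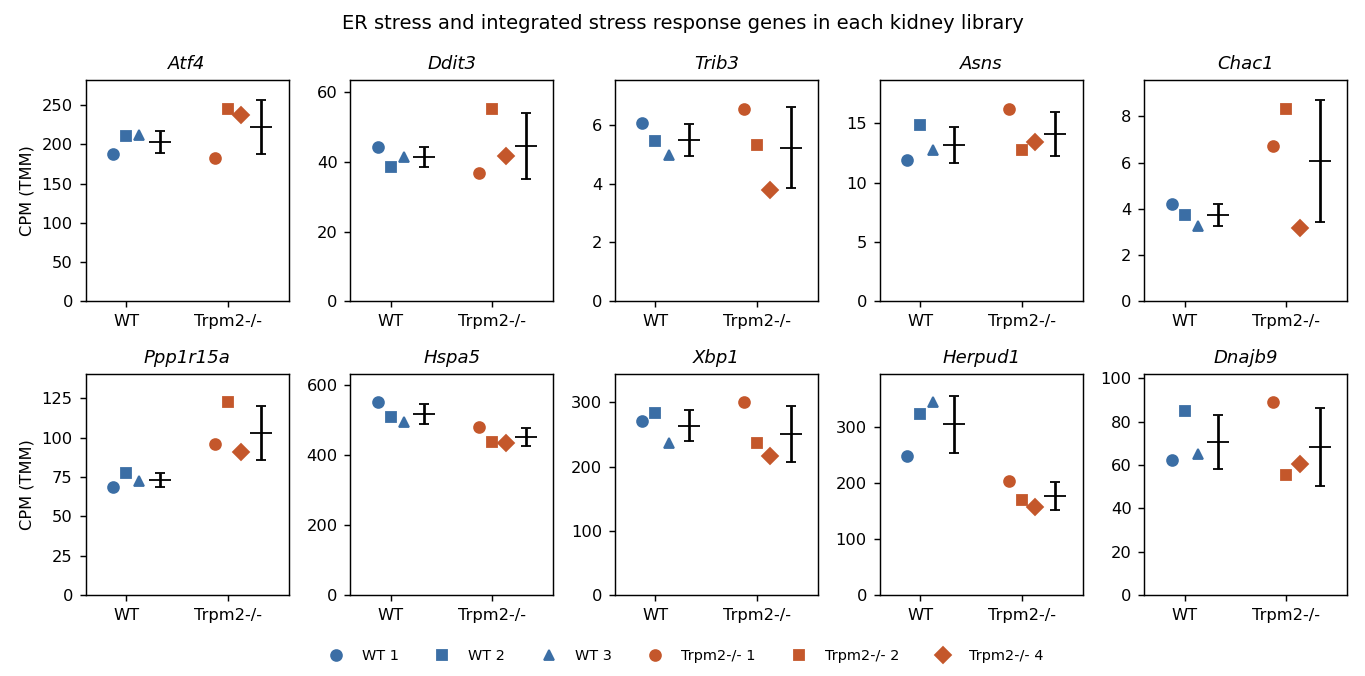
Normalized counts (CPM with TMM library sizes) of the 10 genes in each kidney library, one panel per gene with its own axis from 0. Symbols mark the replicate number, and bars give mean and SD of 3 libraries. Herpud1 lies between 247.6 and 344.0 CPM in WT and between 157.3 and 204.1 CPM in Trpm2-/- kidneys, and Ppp1r15a lies above the WT range in every Trpm2-/- library.

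Herpud1 (ENSMUSG00000031770, chromosome 8, 94386438 to 94395377 of GRCm38) encodes an ER membrane protein that takes part in ER-associated degradation and is induced by both the ATF6 and the ATF4 arm. It had 248, 323 and 344 CPM in WT replicates 1, 2 and 3 and 204, 169 and 157 CPM in Trpm2-/- replicates 1, 2 and 4. Every Trpm2-/- library was below every WT library, with WT replicate 1 and Trpm2-/- replicate 1 closest to each other. The means were 305 ± 50.7 and 177 ± 24.4 CPM (SD, n = 3). The log2 fold change was -0.79 (standard error 0.168, 95% interval -1.16 to -0.41, adjusted p = 0.0175 in edgeR's test), so the mean fell by 42.0% in size. Without WT replicate 2 or WT replicate 3 the adjusted p from edgeR was 0.0803 and 0.0917, with log2 fold changes of -0.746 and -0.695. Leaving out these libraries also lowered the number of genes called lower over the whole table, from 1152 to 521 and 470. Herpud1 was lower in the same libraries in which proximal tubule markers and some markers of other tubule segments were lower. The part of cell composition in its difference was not tested. Of 7 markers of plasma cells, which are rich in ER, 4 passed the filter and 0 were called by edgeR. At an unadjusted p under 0.05, 1 was above and 1 below 0, beside 14% and 14.3% of all genes. The 7 markers had sums of 80.3 to 86.8 CPM in WT and 55.2 to 84.9 CPM in Trpm2-/- libraries. Most of that sum was Sdc1, which epithelial cells also express, while the defining markers Jchain (below 1 CPM) and Tnfrsf17 (0 to 0.062 CPM) were near 0. Mzb1, another of the list, had 12.9, 12.7 and 19.4 CPM in WT and 4.65, 12.2 and 5.23 CPM in Trpm2-/- libraries, all below WT as for Herpud1 (log2 fold change -1.03, adjusted p = 0.0967 in edgeR's test). Prdm1 lay the other way (2.16, adjusted p = 0.0551 in edgeR's test), with 6, 5 and 3 counts in WT libraries, near the floor. The part of plasma cells in the Herpud1 difference was not tested.

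The other genes of the ATF6 and XBP1 branches gave smaller differences. Hspa5 (chromosome 2, 34771970 to 34777547), which encodes the main ER chaperone BiP, had 551, 509 and 495 CPM in WT libraries and 482, 439 and 435 CPM in Trpm2-/- libraries. The ranges did not overlap, but the gap between them was small, and the log2 fold change was -0.20 (95% interval -0.50 to 0.10, adjusted p = 0.371 in edgeR's test). Xbp1 (chromosome 11, 5520659 to 5525893), the transcription factor gene spliced by IRE1, had 270, 284 and 237 CPM against 300, 236 and 216 CPM. Trpm2-/- replicate 1 was above all WT values, replicate 4 was below them and replicate 2 was level with the lowest, and the log2 fold change of -0.07 had an interval of -0.43 to 0.28. Dnajb9 (chromosome 12, 44205559 to 44210326), an ER co-chaperone of BiP and a target of XBP1, had 62.2, 85.0 and 65.0 CPM against 88.8, 55.4 and 60.6 CPM. The WT values lay within the range of the Trpm2-/- values, and the log2 fold change was -0.05 (interval -0.50 to 0.40). Of its 75-base transcript windows, 2.55% also occur in another gene, Gm6568.

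Ppp1r15a (ENSMUSG00000040435, chromosome 7, 45522916 to 45526268) encodes GADD34, the inducible subunit that directs a phosphatase to eIF2α and so ends the translational block. It had 68.5, 77.7 and 72.7 CPM in WT replicates 1, 2 and 3 and 95.9, 122 and 90.7 CPM in Trpm2-/- replicates 1, 2 and 4. All Trpm2-/- libraries were above all WT libraries, and replicate 2 was the highest. The means were 73.0 ± 4.62 and 103 ± 17 CPM (SD, n = 3). The log2 fold change was 0.50 (standard error 0.146, 95% interval 0.17 to 0.82), and the adjusted p of 0.0552 in edgeR's test missed the threshold. The adjusted p was 0.0233 with DESeq2, 0.0341 with no filter on low counts, 0.0475 without the mitochondrial genome and 0.0382 without Trpm2-/- replicate 4, and it ranged from 0.0233 to 0.201 over all alternatives. Of its exonic bases, 12 overlap Tulp2 on the opposite strand, and whether the counting used strand is not given in the sources used here.

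Chac1 (chromosome 2, 119351229 to 119354381) encodes an enzyme that degrades glutathione and is a target of ATF4 and CHOP. It had 4.19, 3.73 and 3.25 CPM in WT libraries and 6.73, 8.33 and 3.18 CPM in Trpm2-/- libraries. Replicates 1 and 2 of the Trpm2-/- mice were above all WT values, and replicate 4 was level with the lowest of them. The log2 fold change was 0.70 (standard error 0.358, interval -0.10 to 1.51, adjusted p = 0.234 in edgeR's test). Without Trpm2-/- replicate 4, the library with high podocyte markers, it was 1.02 with an adjusted p of 0.0403 from edgeR. The gene had 51 to 122 counts per library, the fewest of the 10 genes.

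The transcription factors at the head of the integrated stress response showed no detected difference. Atf4 (chromosome 15, 80255184 to 80257541) had 187, 211 and 212 CPM in WT libraries and 183, 246 and 237 CPM in Trpm2-/- libraries. Trpm2-/- replicates 2 and 4 were above the WT range and replicate 1 was below it. The log2 fold change was 0.12 (95% interval -0.21 to 0.46, adjusted p = 0.634 in edgeR's test). Ddit3, which encodes CHOP (chromosome 10, 127290774 to 127296288), had 44.3, 38.4 and 41.3 CPM against 37.0, 55.3 and 41.7 CPM, a log2 fold change of 0.11 (interval -0.26 to 0.48). Trpm2-/- replicate 2 was above the WT range and replicate 1 below it, and without replicate 2 the log2 fold change was -0.07. Ddit3 shares 105 exonic bases with its own second entry, and 68 with Mars and 13 with Gm4189 on the opposite strand.

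Asns and Trib3, both targets of ATF4, did not separate the genotypes either. Asns (chromosome 6, 7675169 to 7693254), which encodes asparagine synthetase, had 11.9, 14.8 and 12.8 CPM in WT and 16.2, 12.7 and 13.5 CPM in Trpm2-/- libraries, a log2 fold change of 0.10 (interval -0.31 to 0.51). The ranges overlapped, and the sign turned without Trpm2-/- replicate 1 (-0.01). Trib3 (chromosome 2, 152337422 to 152344032), a pseudokinase that dampens ATF4 and AKT signaling, had 6.04, 5.46 and 4.97 CPM against 6.55, 5.32 and 3.80 CPM, a log2 fold change of -0.07 (interval -0.68 to 0.54). It had 61 to 107 counts per library, where counting alone gives a coefficient of variation of 12.8% at the lowest count, and its Trpm2-/- values spread 1.72-fold on the CPM scale.

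**Figure D2:**
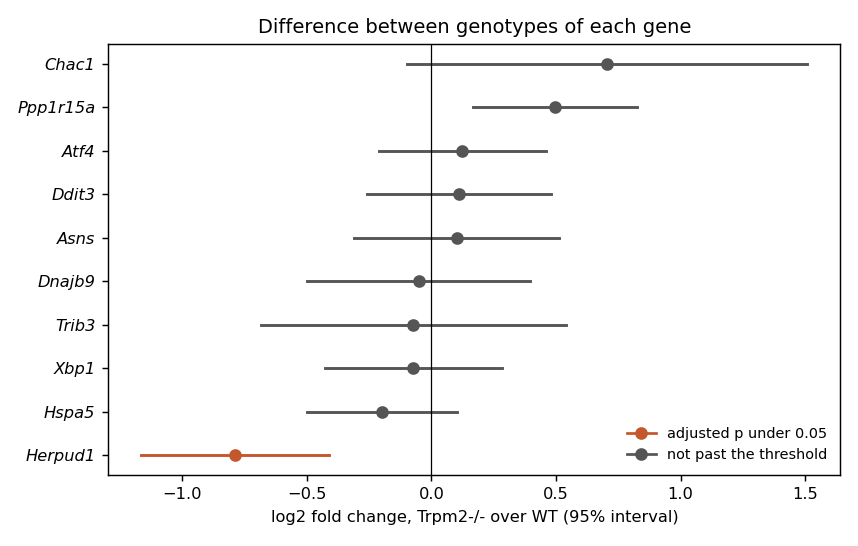
Log2 fold change of each gene, Trpm2-/- over WT, from edgeR's quasi-likelihood fit on 3 libraries per genotype. Points are estimates and lines are 95% intervals, ordered by estimate. Herpud1 (-0.79) is the one gene past an adjusted p of 0.05, the interval of Ppp1r15a (0.17 to 0.82) also lies off 0, and the other 8 intervals include 0.

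Levels of different genes were compared per length, in FPKM, which divides fragments by gene length and a scale of each library. In WT kidneys the order of means was Herpud1 (114), Hspa5 (107), Atf4 (75.5), Xbp1 (71.0), Dnajb9 (24.3), Ppp1r15a (21.7), Ddit3 (21.1), Asns (4.21), Trib3 (2.26) and Chac1 (1.99 FPKM). Neighbours whose WT ranges overlapped were Herpud1 with Hspa5, Atf4 with Xbp1, Dnajb9 with Ppp1r15a, Ppp1r15a with Ddit3, and Trib3 with Chac1. In Trpm2-/- kidneys Herpud1 had rank 4 at 66.8 FPKM, after Hspa5 (94.2), Atf4 (83.0) and Xbp1 (68.0 FPKM). Herpud1 had rank 1 or 2 in every WT library and rank 3 or 4 in every Trpm2-/- library. Ppp1r15a went from rank 6 to rank 5 at 30.9 FPKM, and Chac1 from rank 10 to rank 9 at 3.27 FPKM, both with ranges that overlapped those of their neighbours Dnajb9 and Trib3. The Trpm2-/- ranges of Hspa5, Atf4, Xbp1 and Herpud1 each overlapped the next in order.

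**Figure D3:**
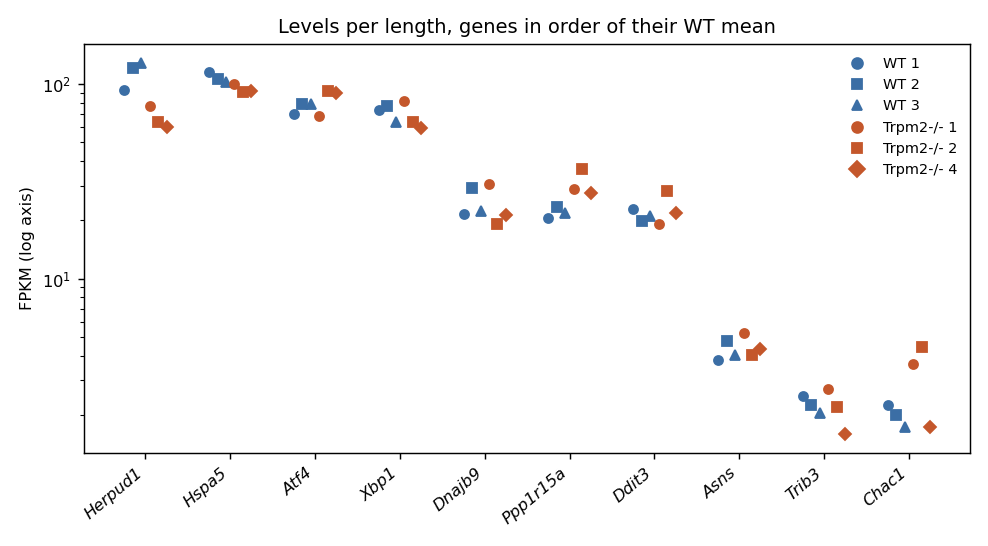
FPKM of the 10 genes on a log axis, in the order of the WT means, with one symbol per kidney library. Herpud1, Hspa5, Atf4 and Xbp1 lie between 59.0 and 129 FPKM in all libraries, Dnajb9, Ppp1r15a and Ddit3 between 19.0 and 36.5, and Asns, Trib3 and Chac1 between 1.59 and 5.22.

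The Trpm2-/- libraries differed among themselves in the pattern of these genes. On the FPKM scale, Trpm2-/- replicate 2 was the highest of the 6 libraries for Atf4, Ddit3, Chac1 and Ppp1r15a, 4 of 10 genes, where it was the highest for 15.7% of all genes tested. It was also the lowest for Hspa5 and Dnajb9, and over all genes for 16.7%. Trpm2-/- replicate 1 was the highest for Trib3, Asns, Xbp1 and Dnajb9 and the lowest for Atf4 and Ddit3, and over all genes it was the highest for 23.2% and the lowest for 22.7%. Trpm2-/- replicate 4 was the lowest for Trib3, Chac1, Xbp1 and Herpud1 and the highest for none of the 10 genes, where over all genes it was the lowest for 16.2% and the highest for 20.3%. No test was made of these patterns, which rest on single mice. The coefficient of variation in FPKM was larger in Trpm2-/- than in WT libraries for 8 of 10 genes, and for 69.0% of all genes. Its median over the 10 genes was 9.78% in WT and 16.6% in Trpm2-/- libraries, beside 12.7% and 19.0% over all genes.

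Wider genes of these pathways were grouped into 9 lists by role, compiled by hand from general knowledge, with 135 of 136 genes tested. Of these, 3 were higher and 13 were lower in Trpm2-/- kidneys by edgeR after adjustment, and their median log2 fold change was -0.08. Over all genes, 4.74% were higher and 7.28% lower, with a median of 0.02. At an unadjusted p under 0.05 in edgeR's test, 14% of all genes were higher and 14.3% lower, and DESeq2 called 6.92% higher and 9.13% lower. None of the 11 ER stress sensors and eIF2α kinases was called by edgeR (0 in either direction, with 3 above and 1 below 0 at an unadjusted p under 0.05). Eif2ak2, which encodes the RNA-activated kinase PKR, had 28.6, 21.2 and 22.3 CPM in WT and 46.0, 37.6 and 28.2 CPM in Trpm2-/- libraries, with adjusted p = 0.0685 in edgeR's test and 1 gene called by DESeq2, Eif2ak2 itself. Eif2ak4, which encodes the amino acid sensor GCN2, had a log2 fold change of 0.49 (adjusted p = 0.0754 in edgeR's test), and Creb3, an ER-bound transcription factor, had -0.38 (adjusted p = 0.09165). Of 12 genes of eIF2, its exchange factor eIF2B and the eIF2α phosphatase, 0 were called by edgeR or by DESeq2, with 0 above and 2 below 0 at an unadjusted p under 0.05, the eIF2B subunits Eif2b5 (-0.34) and Eif2b4 (-0.38). Ppp1r15b, the constitutive partner of Ppp1r15a, had a log2 fold change of 0.16 (adjusted p = 0.467 in edgeR's test).

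Among 15 tested targets of ATF4 and CHOP in stress and cell death (Fgf21 did not pass the filter), 2 rose and 0 fell, with a median of 0.04 on the log2 scale. Over all genes, 4.74% rose and 7.28% fell, with a median of 0.02. Tnfrsf10b, which encodes the death receptor DR5, rose from 29.4 ± 2.06 to 49.2 ± 1.13 CPM (SD over 3 mice each). Its adjusted p in edgeR's test was 0.00578, at a log2 fold change of 0.74 with standard error 0.122. With the replicate number as a block in edgeR, the adjusted p was 0.0523, the 1 of 15 alternatives in which the gene lost the call. In that fit only replicates 1 and 2 of each genotype inform the difference. The Trpm2-/- values of Tnfrsf10b were 48.8, 48.3 and 50.5 CPM, closer to each other than those of any of the 10 genes. Tnfrsf10b is also a target of p53. Atf3, a transcription factor induced by ATF4 and by many other stresses, had 33.1, 38.1 and 40.1 CPM in WT and 52.2, 57.1 and 46.6 CPM in Trpm2-/- libraries. Its log2 fold change was 0.49 with an adjusted p of 0.0477 in edgeR's test, and the adjusted p was above 0.05 without any one library other than Trpm2-/- replicate 4 (0.0853 to 0.153). Atf3 also lost the call with limma-voom and with the replicate block, and in 7 of 15 alternatives in all. Bcl2l11, which encodes the BH3-only protein BIM, had 0.58 (adjusted p = 0.0717 in edgeR's test).

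The targets of ATF4 in amino acid supply went in both directions, with 1 higher and 2 lower of 15 tested. Over all genes, 4.74% were higher and 7.28% lower. Slc38a2, an amino acid transporter gene, rose from 86.3 ± 5.04 to 157 ± 21.1 CPM (SD, n = 3; log2 fold change 0.86, adjusted p = 0.00546 in edgeR's test). Cth, of the transsulfuration pathway, and Shmt2, of mitochondrial serine metabolism, fell by 1.75 and 1.33 on the log2 scale (adjusted p = 0.00126 for both in edgeR's test). Cth had 197, 213 and 256 CPM in WT and 61.6, 66.0 and 70.7 CPM in Trpm2-/- libraries, while Shmt2 had 184, 210 and 223 against 82.4, 75.6 and 86.8 CPM. Both genes serve metabolism in tubules outside stress, and proximal tubule markers and some of other tubule segments moved with them. That part was not tested. Of 13 aminoacyl-tRNA synthetase genes, 1 fell, the tyrosyl-tRNA synthetase gene Yars (log2 fold change -0.47, adjusted p = 0.0409 in edgeR's test, 0.0688 to 0.209 without any one library other than Trpm2-/- replicate 2). Yars also lost the call in both limma fits on log2 FPKM (0.0648 and 0.0674), and in 8 of 15 alternatives in all. Iars had 0.44 and Gars -0.26, neither past the threshold.

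Of 20 ER chaperones and foldases, 3 fell and 0 rose, 16 had a log2 fold change below 0, and the median was -0.12. Over all genes, 7.28% fell, 48.4% were below 0 and the median was 0.02. Proximal tubule markers were lower in the same libraries (11 of 12, with sums of 9398 to 10380 CPM in WT and 2347 to 3497 CPM in Trpm2-/- kidneys). Some markers of other tubule segments were lower too, and the part of either in these differences was not tested. P4hb, a protein disulfide isomerase gene, fell from 845 ± 66.6 to 531 ± 44.6 CPM (SD, n = 3; log2 fold change -0.67, adjusted p = 0.0184 in edgeR's test). Dnajb11, an ER co-chaperone of BiP, had 99.7, 109 and 104 CPM in WT and 67.3, 78.2 and 64.9 CPM in Trpm2-/- libraries (log2 fold change -0.57, adjusted p = 0.0202 in edgeR's test). Dnajc3, which encodes the PERK inhibitor p58IPK, fell by 0.54 on the log2 scale (adjusted p = 0.02895 in edgeR's test). The adjusted p rose above 0.05 for all 3 genes without WT replicate 2 or WT replicate 3 (0.0792 to 0.129), and for Dnajc3 also without WT replicate 1 or Trpm2-/- replicate 2 or 4 (0.05575 to 0.0719). All 3 genes also lost the call with the replicate block. Of 24 genes of ER-associated degradation and the translocon, 2 fell and 0 rose, a share near the 7.28% of all genes. In this list 14 genes were below and 10 above 0, with a median of -0.10. Selenos and Os9, both of the degradation machinery, fell by 0.55 each on the log2 scale (adjusted p = 0.0411 and 0.0497 in edgeR's test). Without WT replicate 2 or 3 or Trpm2-/- replicate 1 or 4 both lost the call (0.0865 to 0.201), and Os9 also without WT replicate 1 (0.0619). Both also lost it in the limma fits on log2 FPKM (0.05625 to 0.0597) and Os9 with DESeq2 size factors (0.0505) and the stricter filter (0.0502). Over all alternatives, Os9 lost the call in 10 of 15 and Selenos in 7 of 15. Derl1 had -0.47 (adjusted p = 0.0612 in edgeR's test).

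Folding genes of other compartments were set beside them. Of 11 mitochondrial chaperones and proteases, 5 fell and 0 rose, and all 11 were below 0 with a median of -0.48, beside 7.28% lower and 48.4% below 0 over all genes. In the same libraries proximal tubule markers were lower, as given above, and the share of counts on the mitochondrial genome was higher (7.91% to 11.04%, against 4.43% to 4.72% in WT), and the part of either was not tested. Trap1 fell by 0.83, Hspd1, the mitochondrial chaperonin HSP60, by 0.72 and the protease subunit gene Clpx by 0.61 on the log2 scale (adjusted p = 0.00491, 0.0112 and 0.021 in edgeR's test). Without WT replicate 2 or 3 the adjusted p was 0.0644 to 0.109 for Hspd1 and Clpx, and for Clpx it was 0.0541 without Trpm2-/- replicate 4. Hspd1 and Clpx also lost the call with the replicate block, while Trap1 kept it. Of 14 cytosolic heat shock genes, 0 were called by edgeR, with 1 above and 0 below 0 at an unadjusted p under 0.05, and DESeq2 called 1 higher, Hspa4l. Over all genes, 14% were above and 14.3% below 0 at that unadjusted p, and DESeq2 called 6.92% higher. Hspa8 had a log2 fold change of -0.35 and Hsp90ab1 of 0.26. The median of the cytosolic list was -0.02. Differences between the lists were not tested, and genes of 1 list share their libraries.

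**Figure D4:**
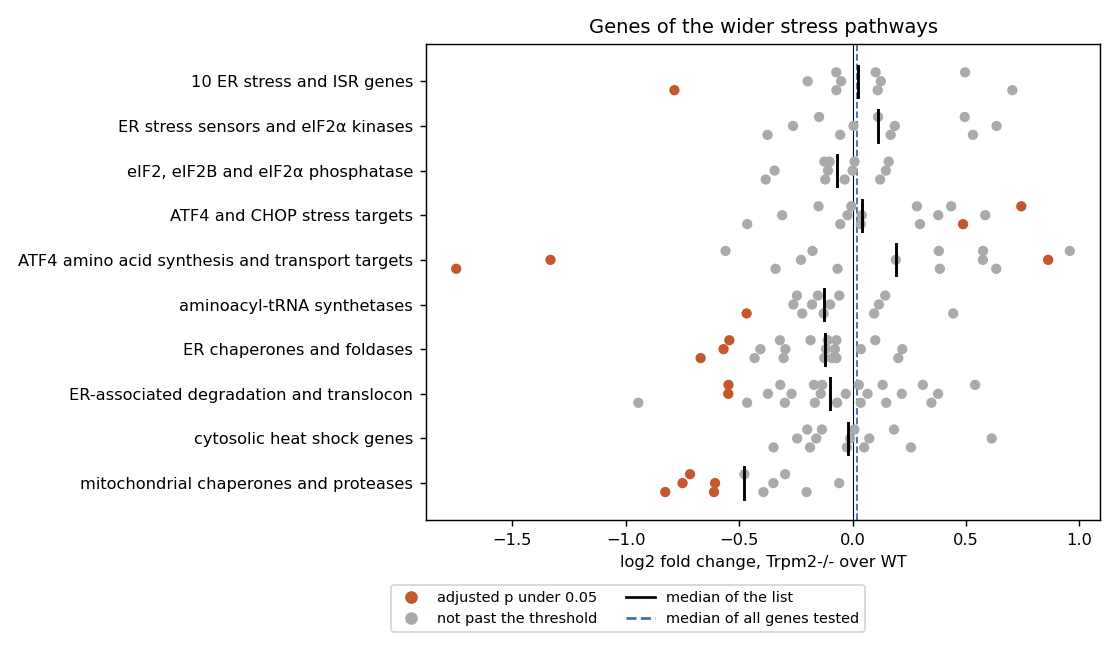
Log2 fold changes, Trpm2-/- over WT, of the 10 genes and of the genes tested in 9 lists; each point is a gene, black bars are list medians and the dashed line is the median of all genes tested (0.02). Points past an adjusted p of 0.05 on the lower side include 3 of 20 ER chaperones and 2 of 24 degradation genes. The mitochondrial list has 5 of 11 there (median -0.48), beside 7.28% of all genes. On the higher side are 2 of 15 ATF4 and CHOP stress targets, beside 4.74% of all genes.

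The promoter elements shown above were set beside these values. Over all genes, 20 with an ER stress response element in the window were tested, of which 15 were below 0, 2 fell and 1 rose, with a median log2 fold change of -0.19, beside 48.4% below 0 and 7.28% lower over all genes. They include Hspa5 and 8 genes of the lists, namely Calr, Canx, Creld2, Derl3, Dnajc3, Hsp90b1, Pdia6 and Syvn1. Windows were matched to tested genes by symbol, so genes under a newer symbol are missed. With newer symbols included, the element lay in windows of 9 genes of the lists, and not all of them have a value here. The 8 named genes were all below 0, from -0.94 for Derl3 to -0.07 for Canx, with a median of -0.28, and 1 of them, Dnajc3, was called lower. The 8 genes are a subset of the folding and degradation lists described above and add no separate result. Hspa5 (-0.20) was also below 0, and all of these genes are counted among the 15 of 20 below 0. That count is thus not separate from the lists. The second form of the element lay in the windows of Herpud1 and Dnajb11 and of other genes, 9 tested in all, which had a median of 0.14 with 2 lower, Herpud1 and Dnajb11. Tested genes with a C/EBP-ATF element numbered 301, with a median of 0.03, 17 higher and 25 lower, beside 4.74% higher and 7.28% lower over all genes. Those with the core of the unfolded protein response element numbered 358, with a median of 0.04, 13 higher and 14 lower. Of these 358, 165 were below and 193 above 0. Genes with an ER stress element were counted by a search of letters, many of them belong to the same folding lists, and no test was made.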

How the data were processed

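Kidney RNA (Trizol) was sequenced on an Illumina platform after NEBNext Ultra II library preparation, and the submitters' processing notes name HISAT2 and StringTie. The notes name mm9, but 98.33% of gene identifiers shared with GENCODE M21 have the positions of GRCm38, which are the ones given. The authors deposited raw read counts per gene without normalization, and FPKM values, which are these counts divided by gene length and a scale of each library. That scale is not proportional to the sum of counts on genes, and how it was set is not given in the sources used here. The annotation and counting tool are not given in the sources used here.

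The test used edgeR 4.0.16 under R 4.3.3: default filterByExpr, TMM, a genotype-only quasi-likelihood fit over 6 libraries, and Benjamini-Hochberg adjustment over 15816 genes (two-sided, threshold 0.05). A standard error is the size of the log2 fold change over the root of F, and 95% intervals use the median degrees of freedom. Named are all 10 genes and, of each list, the 3 with the smallest p; Calr, Canx, Creld2, Derl3, Hsp90b1, Pdia6 and Syvn1 were named by their promoter match, Krt20 and Sox9 as called markers. The genes and lists were chosen with earlier results of these data known. In simulated counts, edgeR recovered 179 of the 193 tested genes that were altered 4-fold, with 7 other calls, where dispersions followed the trend. With gene-wise dispersions, tried first, it recovered 167 of 193 with 11 other calls. Smaller changes, such as those of the 10 genes, were not simulated, so recovery at their size is not known. Libraries of a group differed by more than sampling noise (chi-square per degree of freedom 13.5 to 36.7). Alternatives were DESeq2 (1.42.0) size factors and Wald test, limma-voom (3.58.1), limma on log2 FPKM with pseudocounts of 1 and 0.1, other filters, fits without the mitochondrial genome or any 1 library, and a replicate block.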

Additional observations from a re-analysis of the deposited data

How the results depend on the processing

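Over the 15 alternatives, the 10 genes gave 150 fitted values, of which 134 kept direction and side of the threshold. The number of genes called higher was 0 and became 1 (Ppp1r15a) without the mitochondrial genome, with no filter on low counts and with the DESeq2 Wald test, and was 0 to 2 with 1 library left out (2 without Trpm2-/- replicate 4, Ppp1r15a and Chac1). The number called lower was 1 (Herpud1) and became 0 under the rule of the methods and was 0 to 1 with 1 library left out. In the wider lists, 3 genes were higher, and this became 9 with no filter, 6 with the DESeq2 Wald test, 0 under the rule of the methods and 2 to 7 with 1 library left out (7 without Trpm2-/- replicate 4). The 13 lower genes became 2 under the rule of the methods and 3 to 17 with 1 library left out, 3 without WT replicate 2 or WT replicate 3 and 6 without Trpm2-/- replicate 4, where fewer libraries enter.

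Directions that turned were those of genes near 0 on the log2 scale. With 1 library left out, Ddit3 ranged from -0.074 (without Trpm2-/- replicate 2) to 0.228, Asns from -0.012 (without Trpm2-/- replicate 1) to 0.193, Xbp1 from -0.223 to 0.035 and Trib3 from -0.271 to 0.123 (both highest without Trpm2-/- replicate 4). Dnajb9 ranged from -0.288 to 0.099, above 0 without WT replicate 2 (0.099) and without Trpm2-/- replicates 2 and 4 (0.078 and 0.041). The cause of these changes was not tested. Numbers 1 and 2 occur in both genotypes, but nothing says that they pair mice, and deviations of same-numbered libraries correlated at 0.0641 and -0.012 across genes. Numbers 3 and 4 occur in 1 genotype each, so with the number as a replicate block only replicates 1 and 2 inform the genotype term. Calls lost in that fit thus also reflect fewer libraries. In it, 0 of the 10 genes were called lower (Herpud1 -0.606, adjusted p = 0.136 in edgeR's test), 3 wider genes were lower, and Trib3 had 0.041. Chac1 (51 to 122 counts) and Trib3 (61 to 107 counts) have the fewest reads of the 10 genes, and the part of depth in their spread was not tested.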
